A study of Saccharomyces cerevisiae with 72 samples.

Results

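The transcripts described here encode 8 regulators of ribosomal gene transcription in Saccharomyces cerevisiae: SFP1, IFH1, FHL1, CRF1, RAP1, DOT6, TOD6 and STB3. Their probe sets were found by gene symbol in the array annotation, and each of the 8 genes has 1 probe set of its own, out of 5656 genes with a probe set. The series holds 72 Affymetrix arrays of total RNA from 6 genotypes, each treated with 3-aminotriazole (3-AT), treated with rapamycin or left without treatment, with 4 arrays in each of the 18 groups. The mutants were deleted for gcn2 (strain KY654), gcn4 (KY656), gln3 (KY640), gcn2 and gln3 (KY641) or gcn4 and gln3 (KY643), and the wild type was KY652. All cultures, the untreated ones included, grew in synthetic medium with ammonium sulfate that lacked histidine. Treatment lasted 1 h with 10 mM 3-AT or 200 nM rapamycin. The study asked, per its design text, how far Gcn2, Gcn4 and Gln3 shape the transcriptional response to these agents, and the labels name a strain for each genotype but no second isolate of it.

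Ribosome synthesis takes a large share of the capacity of a growing yeast cell, and its genes are shut down together when nutrients run short. Rap1 binds most ribosomal protein promoters and recruits the forkhead-like factor Fhl1, which serves as a platform for the coactivator Ifh1 or, when the TORC1 kinase is inactive, for the corepressor Crf1. Sfp1 is a zinc finger activator of ribosomal protein and ribosome biogenesis genes that leaves the nucleus under stress. Dot6 and Tod6 are related Myb-like repressors that bind the PAC element of ribosome biogenesis promoters, and Stb3 is a repressor that binds the RRPE element there. These proteins are known to be controlled largely by phosphorylation and by their place in the cell, which RNA arrays do not read. 3-AT inhibits histidine biosynthesis and so activates the kinase Gcn2 and, through it, the activator Gcn4, whereas rapamycin inhibits TORC1 and releases the GATA factor Gln3.

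The deposited signals were scaled so that the trimmed mean of every array lay at 1001, and a value is therefore relative to the other signals of its array. In cultures read this way, fewer cells of a kind and less RNA per cell cannot be told apart. The background of an array, taken as its 30th percentile, ran from 66.0 to 137 units. GCN4 gave 3.85 to 86.8 units on the 24 arrays of strains that lack it, against 8080 to 23622 on the other 48. GLN3 gave 0.416 to 39.4 units on the 36 arrays of strains that lack it, against 124 to 869.6 on the other 36. The GCN2 probe set overlapped, at 74.9 to 226 units in gcn2 strains, with 22 of 24 arrays above background, against 81.5 to 391 units elsewhere. Where it lies relative to the deleted stretch is not given in the sources used here. On 69 arrays the ratio of the 3′ to the 5′ actin control lay between 1.31 and 5.03. It was 229.5 on replicate 1 of gcn2 gln3 in 3-AT, 113 on replicate 1 of gcn2 gln3 in rapamycin and 43.2 on replicate 2 of gcn4 gln3 in rapamycin. That last array had a mean correlation of 0.542 with the others, and counts are given below also without these 3 arrays.

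Of the 8 regulators, 3 rose with 3-AT in wild type (CRF1, SFP1 and STB3) and none fell. Over all 6869 probe sets tested with limma, 35.8% passed an adjusted p of 0.05 in this comparison, 22.2% being higher and 13.6% lower. With rapamycin 1 regulator rose (CRF1, on signals near or below background) and 2 fell (RAP1 and TOD6), where 37.8% of all probe sets passed, 22.2% higher and 15.7% lower. A count of 3 in 8 is close to the share over the whole table for both drugs, so the result lies in which regulators moved and not in how many. Without the 3 arrays of high actin ratio the same 3 regulators passed with 3-AT, and SFP1 joined the other 3 with rapamycin at 0.40 ± 0.18 on the log2 scale (adjusted p = 0.0489). That fit also called more of the whole table. With 3-AT 3690 of 6869 probe sets passed, against 2457 in the main fit, and with rapamycin 3763, against 2597. The median change of the 8 regulators was 0.26 with 3-AT and -0.30 with rapamycin on the log2 scale, beside 0.09 and 0.14 over all probe sets. When each array was centred on its median, the medians over all probe sets became -0.17 and 0.00, and with quantile normalization -0.08 and 0.06. The split of all called probe sets was 1523 higher and 934 lower with 3-AT, and it turned to 1193 and 1262 with quantile normalization and to 1062 and 1606 with median centring. With rapamycin it was 1522 higher and 1075 lower, and with median centring 1234 and 1337.

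Against untreated arrays, 17 of 40 mutant tests passed with 3-AT, 16 as higher and 1 as lower (39.1% of all tests in these strains passed, 26.5% higher and 12.6% lower). With quantile normalization the split was 12 higher and 3 lower, and with median centring 12 and 6. By strain the share of all probe sets that passed with 3-AT was 45% in gcn4, 42.1% in gcn4 gln3, 39.2% in gcn2 gln3, 38.4% in gcn2 and 30.7% in gln3. With rapamycin 12 of 40 passed, 4 as higher and 8 as lower (33.1% of all tests, 20.2% higher and 12.9% lower). With median centring that split was 2 and 13, and without the 3 arrays of high actin ratio 7 and 10. The share over all probe sets in the mutants is not given for these alternatives, and in wild type it rose without the 3 arrays. In a fit on the compared arrays only, the 5 calls of gcn4 gln3 with rapamycin did not pass (adjusted p = 0.0907 to 0.390). The share of all probe sets that passed with rapamycin was 43.1% in gcn4 gln3, 34.7% in gcn4, 31.4% in gln3, 29.3% in gcn2 and 27% in gcn2 gln3.

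**Figure D1:**
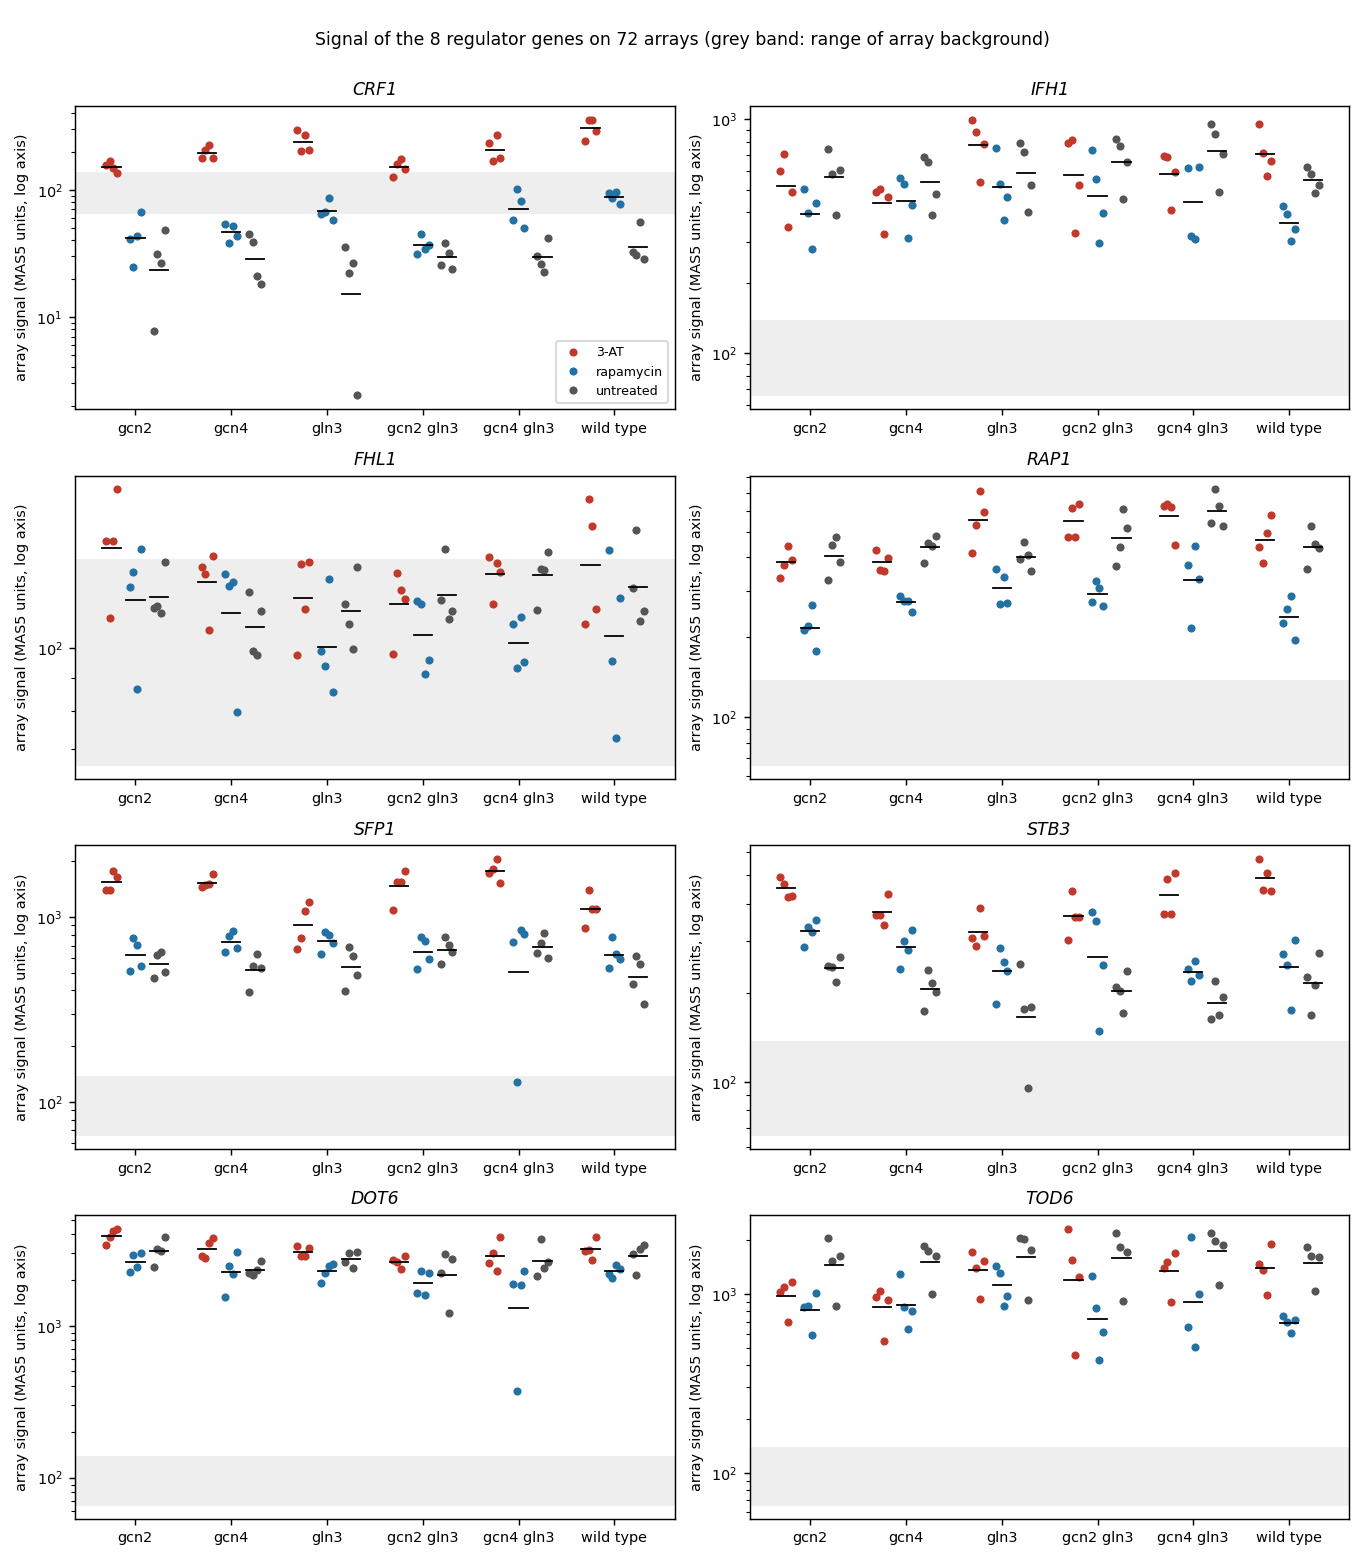
Array signal (log axis, MAS5 units) of each regulator gene in 6 genotypes, with 1 point per array, a black bar at the geometric mean of each group and a grey band for the range of array background. CRF1 stands above 126 units on every 3-AT array and between 2.41 and 55.6 units on every untreated array, while the 3 treatments of FHL1 lie inside or close to the background band.

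CRF1, the corepressor that can take the place of Ifh1 on Fhl1, had the largest response among the 8 genes. In wild type its signal was 243, 358, 356 and 292 units in 3-AT, 94.1, 86.0, 95.9 and 77.3 units in rapamycin, and 32.5, 30.6, 55.6 and 28.7 units without treatment. The 3 groups did not overlap, and the untreated arrays all lay below background. With untreated arrays set to their own background, CRF1 was at least 3.51-fold higher in 3-AT. The limma test on floored signals gave an adjusted p of 5.99e-15, which is not for this bound. In the 5 mutants the 3-AT signal ran from 126 to 297 units, every array above background, against 2.41 to 48.1 units in the untreated mutants, no array above background. In gln3 CRF1 was at least 3.04-fold higher in 3-AT, in gcn4 gln3 at least 2.79-fold and in gcn4 at least 2.43-fold. In gcn2 gln3 it was at least 1.98-fold and in gcn2 at least 1.76-fold higher. The limma test on floored signals gave adjusted p-values between 7.42e-16 and 1.57e-10 in these mutants, again not for the bounds. CRF1 was thus detected on all 24 arrays of 3-AT, on 3 of 24 arrays of rapamycin and on none of the 24 untreated arrays. A probe set was tested if above background on at least 4 arrays, which CRF1 met only through its 3-AT arrays. All tests of CRF1 rest on that entry, and those with 3-AT are given as description and not as separate support.

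The rapamycin signal of CRF1 stayed near background. In wild type 2 of its 4 rapamycin arrays were above background. With untreated arrays set to their own background, the lower bound of the rise was 1.00-fold, and the rise itself can be larger. The difference passed in limma on floored signals (adjusted p = 5.69e-05). It passed also in gln3 (57.7 to 85.6 units, against 2.41 to 35.4 untreated), in gcn4 gln3 (50.4 to 102, against 22.4 to 42.1) and in gcn4 (38.4 to 53.5, against 18.3 to 45.0). In gcn2 and gcn2 gln3 the groups overlapped and the adjusted p was 0.116 and 0.428. No fold is given for these mutants, because both groups were below background on all or nearly all arrays. The call in gcn4 ended when any of 4 arrays was left out in turn (adjusted p = 0.0866 to 0.187) and with median centring (adjusted p = 0.254).

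IFH1, the coactivator, did not pass with 3-AT in any genotype in the main fit. With the replicate number added to limma as a block it passed as higher in wild type (0.37, adjusted p = 0.0358) and gln3 (0.40, adjusted p = 0.0233). Its wild type signal was 949.8, 715, 570.1 and 665 units in 3-AT, 424, 392.3, 300.2 and 339.8 units in rapamycin, and 625, 586, 483 and 524 units without treatment. The rapamycin arrays all lay below the untreated ones, while the 3-AT and untreated arrays overlapped. The rapamycin change in wild type was -0.61 ± 0.29 on the log2 scale and missed the threshold (adjusted p = 0.0895), although it passed with median centring at -0.75 (adjusted p = 0.0480) and in a fit on the compared arrays only (adjusted p = 0.00910). With a replicate block in limma it passed in wild type (adjusted p = 4.25e-04), and so did gcn2 (-0.52, 0.00349) and gcn2 gln3 (-0.49, 0.00605). Across the 6 genotypes the rapamycin change of IFH1 lay between -0.73 and -0.20, and in the main fit it passed in gcn4 gln3 alone (adjusted p = 0.0360). That call ended when any of 5 arrays was left out in turn (adjusted p = 0.0561 to 0.136), and without the 3 arrays of high actin ratio it was -0.57 (adjusted p = 0.111). Without these 3 arrays gcn2 gln3 passed in its place at -0.71 (adjusted p = 0.0491). Among arrays that share a replicate number, IFH1 was lower in rapamycin in 24 of 24 comparisons with the untreated array of the same genotype. The labels do not say that these numbers pair the arrays, and how many of all probe sets reach such a count was not computed.

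FHL1, the platform for both, passed in no comparison between treatments. Its wild type signal was 109, 169.9, 155 and 115 units in 3-AT, 142, 95.7, 72.8 and 119.7 units in rapamycin, and 124, 152, 110.2 and 114 units without treatment. All 3 groups overlapped. Over the 72 arrays FHL1 ranged from 72.8 to 176 units, was above its array's background on 66, and its 18 group means ran from 102 to 145 units. With 3-AT its change in the 6 genotypes lay between -0.05 and 0.25 and with rapamycin between -0.35 and 0.07 on the log2 scale. With median centring 3 falls passed, in gcn2 gln3 with 3-AT (-0.44) and in gln3 (-0.45) and gcn4 gln3 (-0.42) with rapamycin. With quantile normalization the fall in gcn4 gln3 with rapamycin passed at -0.75 (adjusted p = 0.00298).

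RAP1, which encodes the DNA-binding protein beneath Fhl1, fell with rapamycin in wild type and did not pass there with 3-AT. In wild type it gave 438, 380.2, 492 and 577 units in 3-AT, 226, 256, 287 and 196 units in rapamycin, and 362, 526, 447 and 434 units without treatment. The rapamycin arrays lay below all others. RAP1 fell by 0.88 ± 0.18 on the log2 scale in rapamycin (adjusted p = 4.30e-05), with a mean of 241 ± 39.1 units against 442 ± 67.1 untreated (SD, n = 4 each, limma). Rapamycin lowered it also in gcn2 (-0.90), gcn4 (-0.69), gcn2 gln3 (-0.71) and gcn4 gln3 (-0.86), and the groups did not overlap in these 5 genotypes. In gln3 the change was -0.39 with overlapping groups (adjusted p = 0.0865), and it passed with quantile normalization (-0.60), with median centring (-0.65) and without the 3 arrays of high actin ratio (adjusted p = 0.0355). With 3-AT the change of RAP1 ran from -0.19 to 0.46 and passed as a rise in gln3 alone (adjusted p = 0.0388). This rise did not pass with quantile normalization (0.20) or median centring (0.15), or when any of 6 arrays was left out. Under these scalings RAP1 passed instead as lower with 3-AT in gcn2 (-0.42 and -0.44) and gcn4 (-0.56 and -0.59), and with median centring in gcn4 gln3 (-0.44), so no direction is given for RAP1 in 3-AT.

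SFP1, the zinc finger activator, rose with 3-AT in all 6 genotypes. In wild type it gave 869.5, 1404, 1100.2 and 1109 units in 3-AT, 527, 774, 633 and 594 units in rapamycin, and 435, 615, 558 and 339.8 units without treatment. The 3-AT arrays lay above all others, and the rapamycin and untreated arrays overlapped. SFP1 averaged 1121 ± 219 units in 3-AT and 487 ± 123 untreated (SD, n = 4 each), a rise of 1.22 ± 0.28 on the log2 scale (limma, adjusted p = 4.16e-04). Among the mutants gcn4 rose most, by 1.57, then gcn2 by 1.48, gcn4 gln3 by 1.36, gcn2 gln3 by 1.14 and gln3 by 0.76. In gln3 the groups overlapped, at 667 to 1200.3 units in 3-AT and 398 to 688 untreated, and the adjusted p of 0.0345 became 0.202 with quantile normalization, 0.172 with median centring and 0.0813 to 0.130 when any of 4 arrays was left out. With rapamycin SFP1 passed in no genotype, at -0.46 to 0.51 on the log2 scale. The negative end of that range is gcn4 gln3, where replicate 2 had 128 units and the other 3 arrays 727 to 846. Without the 3 arrays of high actin ratio the range was 0.07 to 0.51, and SFP1 passed as higher with rapamycin in 3 of 6 genotypes.

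**Figure D2:**
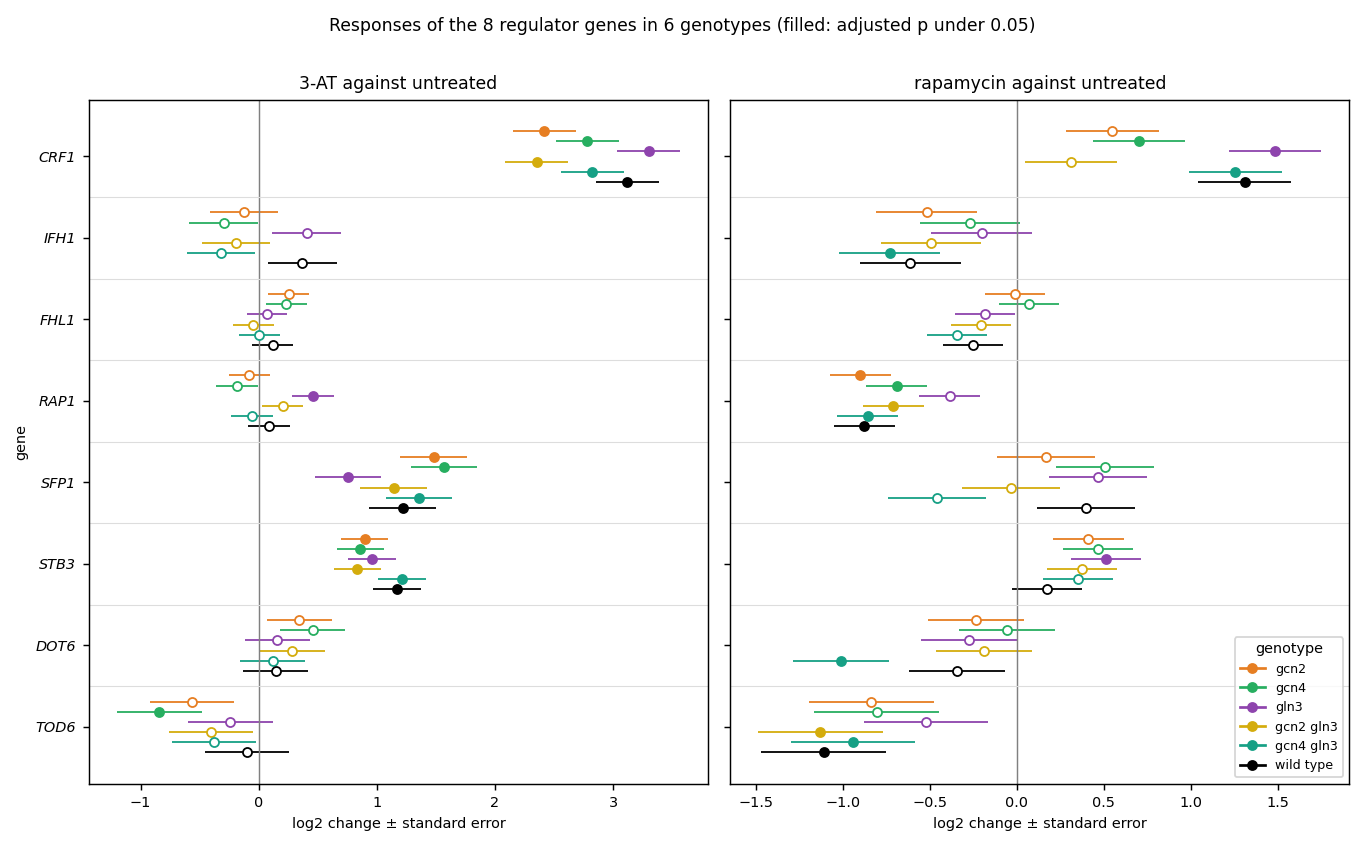
Change of each regulator gene (log2 scale, with standard error) in 3-AT and in rapamycin against untreated arrays of the same genotype, with 1 row per genotype and filled points where the adjusted p is under 0.05. With 3-AT CRF1, SFP1, STB3 and DOT6 stand right of 0 in all genotypes, and TOD6 left of 0. With rapamycin RAP1, TOD6, IFH1 and DOT6 stand left of 0 in all genotypes, and CRF1 and STB3 right of 0. The CRF1 values depend on the floor set under low signals and are no fold changes.

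STB3, a repressor, rose with 3-AT in all 6 genotypes. In wild type it gave 566, 446, 507 and 444 units in 3-AT, 271, 249, 175 and 302 units in rapamycin, and 226, 169, 212 and 273 units without treatment. As for SFP1, the 3-AT arrays lay above all others and the rest overlapped. Its mean was 491 ± 58.3 units in 3-AT and 219.9 ± 42.8 untreated (SD, n = 4 each), a rise of 1.17 ± 0.20 on the log2 scale (limma, adjusted p = 3.57e-06). The mutants rose by 0.84 (gcn2 gln3) to 1.21 (gcn4 gln3), with no overlap in any genotype. The calls in gcn4 and gcn2 gln3 did not pass with quantile normalization (adjusted p = 0.0683 and 0.0859) or median centring (0.0645 and 0.0820). With rapamycin its change was 0.17 in wild type and 0.35 to 0.51 in the mutants. In the main fit it passed in gln3 alone (adjusted p = 0.0438), a call that ended when any of 6 arrays was left out in turn and under either scaling. In that genotype replicate 3 of the untreated group had 94.96 units and the other 3 arrays 176 to 251. The rapamycin arrays lay above the untreated ones without overlap in gcn2 (286 to 352 units, against 218 to 263) and gcn4 (241 to 325, against 174 to 239). On the compared arrays only, limma passed both (adjusted p = 0.0211 and 0.0251). The rise in gcn4 passed also without the 3 arrays of high actin ratio (adjusted p = 0.0346) and with a replicate block (0.0476).

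TOD6, a repressor at PAC elements, fell with rapamycin. In wild type its signal was 1480.5, 1370.1, 981 and 1907 units in 3-AT, 756, 699.7, 603 and 719 units in rapamycin, and 1829, 1625, 1042 and 1610.4 units without treatment. The rapamycin arrays lay below all others, and the 3-AT arrays overlapped with the untreated ones. TOD6 averaged 694 ± 65.4 units in rapamycin and 1527 ± 338 untreated (SD, n = 4 each), a fall of 1.11 ± 0.36 on the log2 scale (limma, adjusted p = 0.0105). This call ended without all arrays of replicate 2 (adjusted p = 0.0525) and without those of replicate 4 (adjusted p = 0.0909). Falls passed also in gcn2 gln3 (-1.13) and gcn4 gln3 (-0.94), and the change was -0.84 in gcn2, -0.81 in gcn4 and -0.52 in gln3 (adjusted p = 0.0706, 0.0730 and 0.288). With a replicate block in limma, gcn2, gcn4 and gln3 passed as well (adjusted p = 0.00139, 0.00177 and 0.0489). With median centring gcn2 (-1.01, adjusted p = 0.0390) and gcn4 (-1.09, adjusted p = 0.0218) passed. The call in gcn2 gln3 ended when either of 2 arrays was left out (adjusted p = 0.0569 and 0.0898), and the call in gcn4 gln3 ended with any of 5. Replicate 2 of gcn4 gln3 in rapamycin, an array of high actin ratio, had 2069.7 units, and the other 3 had 502 to 998. Without the 3 arrays of high actin ratio TOD6 passed as lower with rapamycin in 5 of 6 genotypes, all but gln3, at up to -1.40. With 3-AT its change was below 0 in 6 of 6 genotypes, from -0.84 to -0.10. In the main fit it passed in gcn4 alone (adjusted p = 0.0489), where leaving out any of 6 arrays ended the call. In gcn2 the fall with 3-AT passed with a replicate block (-0.56, adjusted p = 0.0275) and with median centring (-0.92, adjusted p = 0.0483).

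DOT6, the paralog of TOD6, gave 3121, 3164, 2726 and 3861 units in 3-AT, 2193, 2073, 2526 and 2348 units in rapamycin, and 2973, 2161, 3185 and 3405 units without treatment in wild type. The rapamycin arrays lay below the 3-AT arrays and overlapped with the untreated ones. With 3-AT it passed in no genotype (0.12 to 0.46 on the log2 scale). The 0.46 is that of gcn4, where the groups did not overlap, at 2808 to 3792 units in 3-AT and 2168 to 2672 untreated. It passed without the 3 arrays of high actin ratio (adjusted p = 0.0330) and in a fit on the compared arrays only (adjusted p = 0.0154). With rapamycin it passed in gcn4 gln3 alone, at -1.01 (adjusted p = 0.00248). There replicate 2 had 370.4 units and the other 3 arrays 1864 to 2299, and without that array the change was -0.40 (adjusted p = 0.116). In the other genotypes the rapamycin change was -0.34 to -0.06. Whether TOD6 responded to rapamycin by a different amount from DOT6 was not tested.

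In wild type 6 of the 8 regulators had higher signals in 3-AT than in rapamycin and none had a lower one, where 35.5% of all probe sets passed in either direction and 19.8% as higher in 3-AT. The differences were 1.81 ± 0.27 for CRF1, 1.01 ± 0.36 for TOD6, 1.00 ± 0.20 for STB3, 0.98 ± 0.29 for IFH1, 0.97 ± 0.18 for RAP1 and 0.82 ± 0.28 for SFP1 on the log2 scale (limma, adjusted p from 1.41e-07 to 0.0218). DOT6 (0.49, adjusted p = 0.173) and FHL1 (0.37, adjusted p = 0.0912) did not pass, and DOT6 passed without the 3 arrays of high actin ratio (adjusted p = 0.0279). The calls of TOD6 and SFP1 each ended when either of 2 arrays was left out (adjusted p = 0.0574 and 0.0831 for TOD6, 0.0570 and 0.0704 for SFP1), and TOD6 also with median centring (adjusted p = 0.0616). Without all arrays of 1 replicate number, TOD6 lost its call for 3 of 4 numbers (adjusted p = 0.0582 to 0.196), SFP1 for 3 (0.0546 to 0.109) and IFH1 for replicate 4 (0.0640). FHL1 passed at 0.62 without replicate 1 (adjusted p = 0.0200). Both drugs are compared with the same untreated arrays above, while this comparison uses none of them. Over the 5 mutants 16 of 40 tests passed, all as higher in 3-AT, where 39.8% of all tests passed and 23.3% as higher. That share was 49.1% in gcn4 gln3, 41.7% in gcn4, 41.2% in gcn2 gln3, 38.1% in gcn2 and 28.8% in gln3, in either direction. CRF1 and RAP1 were higher in 3-AT than in rapamycin in 6 of 6 genotypes, with no overlap between groups, and SFP1 in 5 of 6. In a fit on the compared arrays only, the gcn4 gln3 differences of SFP1 (adjusted p = 0.101), RAP1 (0.145), STB3 (0.0713) and DOT6 (0.257) did not pass. In gln3 the SFP1 difference was 0.29 (adjusted p = 0.498). RAP1 in gcn4 (0.50) lost its call without 1 of the arrays (adjusted p = 0.0534) and with quantile normalization (0.0507). STB3 passed in wild type and gcn4 gln3 (0.86), DOT6 in gcn4 gln3 (1.13, and 0.52 without its high-ratio array), and IFH1 and TOD6 in wild type alone in the main fit. With a replicate block in limma IFH1 passed also in gcn2 (adjusted p = 0.0230), gln3 (6.73e-04) and gcn4 gln3 (0.0141). TOD6 then passed also in gcn2 gln3 (adjusted p = 0.00434) and gcn4 gln3 (0.0221). Without the 3 arrays of high actin ratio 22 of 40 mutant tests passed, STB3 then in 5 of 6 genotypes, DOT6 in 4 and TOD6 in 2. In wild type that fit called 3553 of 6869 probe sets between the drugs, against 2440 in the main fit. For the mutants no share over all probe sets is given in that fit.

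For no regulator did the difference between the response of a mutant and that of wild type pass the threshold in the main fit. With 3-AT 0 of 40 differences of responses passed in limma, 1 had an unadjusted p under 0.05, and 3.93% of all tests in these strains passed. With rapamycin 0 of 40 passed, 3 had an unadjusted p under 0.05, and 2.03% of all tests passed. Of these 4, 3 were CRF1, with a difference from wild type of -0.77 ± 0.38 in gcn2 gln3 with 3-AT (limma, adjusted p = 0.319), -0.999 ± 0.38 in gcn2 gln3 with rapamycin (adjusted p = 0.187) and -0.76 ± 0.38 in gcn2 with rapamycin (adjusted p = 1). The other was SFP1 in gcn4 gln3 with rapamycin (-0.86 ± 0.40), whose adjusted p in limma was 0.217, and 0.818 without the 3 arrays of high actin ratio. For CRF1 the differences depend on the floor under signals below background. With a floor of 2 times the main value, gcn2 (-0.97, adjusted p = 0.0229) and gcn2 gln3 (-0.90, adjusted p = 0.0329) passed with 3-AT and gcn2 gln3 (-1.12, adjusted p = 0.00641) with rapamycin. With a replicate block, the 3-AT response of IFH1 differed from wild type in gcn4 (-0.67, adjusted p = 0.0279) and gcn4 gln3 (-0.69, adjusted p = 0.0220).

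Without treatment the mutants and wild type were not told apart at the threshold for any regulator. Of 40 tests 0 passed, and 2 had an unadjusted p under 0.05: CRF1 in gln3, below background in both strains, and RAP1 in gcn4 gln3 (0.45, limma, adjusted p = 0.345). Over all probe sets 0.932% of these tests passed.

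Levels of each mutant were also compared with wild type within a drug, a comparison chosen after seeing the data. In 3-AT 2 of 40 passed, both CRF1 and both lower, where 12.2% of all tests passed, 6.75% as higher and 5.44% as lower. CRF1 averaged 152 ± 13.3 units in gcn2, 152 ± 21.1 in gcn2 gln3, 197 ± 23.0 in gcn4, 212 ± 48.3 in gcn4 gln3 and 243 ± 47.0 in gln3, against 312 ± 55.2 in wild type (SD, n = 4 each). All arrays were above background, and the gcn2, gcn4 and gcn2 gln3 arrays did not overlap with wild type. The differences were -1.02 ± 0.27 in gcn2 (limma, adjusted p = 0.00591) and -1.03 ± 0.27 in gcn2 gln3 (adjusted p = 0.00333). They were -0.65 in gcn4 (adjusted p = 0.0888), -0.57 in gcn4 gln3 (0.148) and -0.36 in gln3 (0.752). With quantile normalization gcn4 (-0.82, adjusted p = 0.0149) and gcn4 gln3 (-0.72, adjusted p = 0.0399) passed as well. Whether gcn2 and gcn4 strains differ from each other was not tested. With the 3 arrays of high actin ratio left out 9 of 40 passed, 5 as lower and 4 as higher, all 4 being SFP1 and in every mutant but gln3. Of the 5 lower ones, 3 were CRF1 (gcn2, gcn4 and gcn2 gln3). The others were IFH1 in gcn4 (-0.70, adjusted p = 0.0439) and STB3 in gln3 (-0.60, adjusted p = 0.0349). The share over all probe sets is not given for this comparison in that fit, which called more probe sets in wild type. On the arrays left, SFP1 averaged 1535 to 1779 units in 3-AT in the mutants other than gln3, against 1121 ± 219 in wild type. IFH1 in 3-AT gave 323 to 501 units in gcn4, against 570 to 950 in wild type, without overlap. In limma that difference passed also on the compared arrays only (adjusted p = 0.0194) and with a replicate block (adjusted p = 1.79e-04).

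In rapamycin 5 of 40 levels passed against wild type, 4 lower and 1 higher (11.4% of all tests, 6.13% lower and 5.25% higher). CRF1 was lower in gcn2 (24.7 to 67.4 units), gcn4 (38.4 to 53.5) and gcn2 gln3 (31.5 to 44.6) than in wild type (77.3 to 95.9), without overlap (adjusted p = 0.00943, 0.0200 and 3.11e-04). No mutant array of these was above background, so no fold is given, and the call in gcn2 ended without 1 array (adjusted p = 0.170) and that in gcn4 without any of 4. DOT6 was lower in gcn4 gln3 (-0.79, adjusted p = 0.0263, and 0.579 without the 3 arrays of high actin ratio). RAP1 was higher in gcn4 gln3 at 216 to 441 units, against 196 to 287 in wild type (0.47, adjusted p = 0.0394), and the call ended without any of 4 arrays although it passed at 0.67 (adjusted p = 0.00210) without the 3 arrays of high actin ratio.

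A list of 25 partners and upstream regulators of these proteins had 22 genes with a tested probe set. In wild type 3 rose with 3-AT and 2 fell, with a median of -0.08 (log2), where 35.8% of all probe sets passed with a median of 0.09. With rapamycin 2 rose and 3 fell, with a median of 0.07, where 37.8% of all passed with a median of 0.14. The share of partners that passed was thus below that over all probe sets for both drugs. YAK1, a kinase that phosphorylates Crf1 when TORC1 is inhibited, rose by 1.52 ± 0.22 with 3-AT and 1.39 ± 0.22 with rapamycin (limma, adjusted p = 8.71e-08 and 5.31e-07). UTP22, which binds Ifh1 in a complex with Rrp7 and casein kinase II, fell by 0.96 with 3-AT and by 2.85 with rapamycin, and was 1.89 higher in 3-AT than in rapamycin. Of the casein kinase II subunits, the catalytic CKA1 rose by 0.52 and the regulatory CKB1 fell by 1.47 with 3-AT, and neither passed with rapamycin. MRS6, whose product binds Sfp1, rose by 0.42 with 3-AT. With rapamycin SCH9, the TORC1 effector kinase that phosphorylates Stb3, Dot6 and Tod6, rose by 0.93, and RRN3, an initiation factor of RNA polymerase I, and TPK3, a catalytic subunit of protein kinase A, fell by 0.90 and 0.59. In 3-AT against rapamycin 5 were higher (CKA1, MRS6, RRN3, TPK3 and UTP22) and 2 lower (CKB1 and SCH9), where 35.5% of all probe sets passed.

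**Figure D3:**
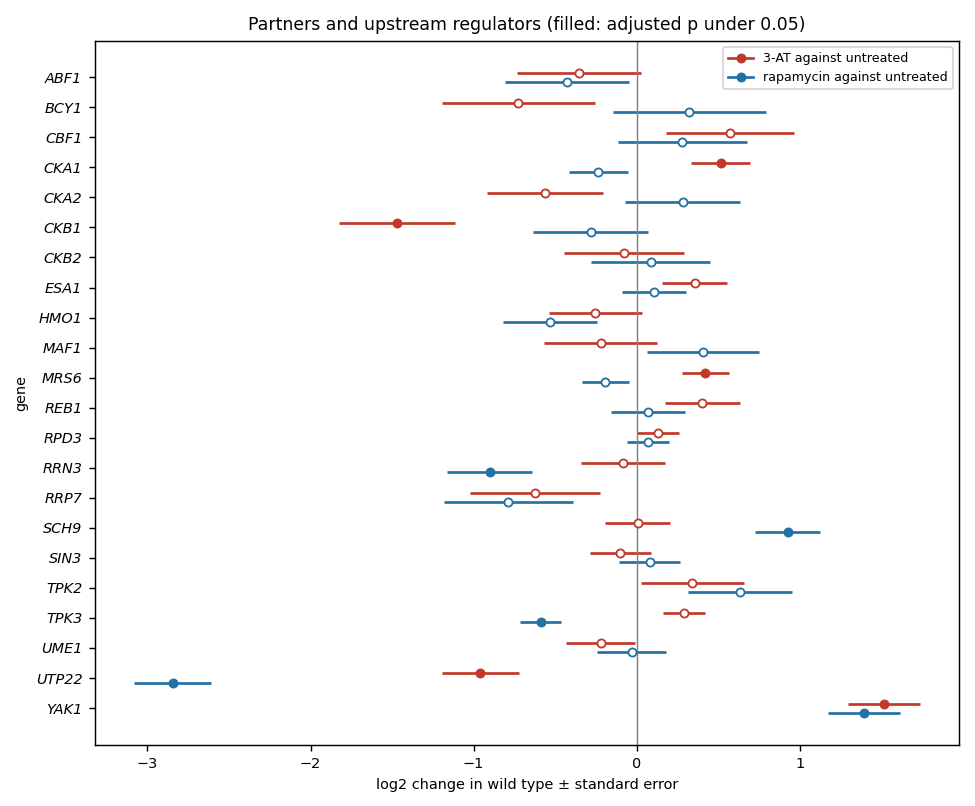
Change of 22 partner and upstream genes in wild type (log2 scale, with standard error) in 3-AT (red) and rapamycin (blue) against untreated arrays, filled where the adjusted p is under 0.05. YAK1 is far to the right with both drugs, at 1.52 and 1.39, and UTP22 far to the left with rapamycin, at -2.85.

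The genes these factors act on moved by more with rapamycin than most of the regulators did. Of 93 ribosome biogenesis genes tested in wild type, none rose and 34 fell with 3-AT (median -0.61), and none rose and 89 fell with rapamycin (median -1.68, log2), where 13.6% of all probe sets fell with 3-AT and 15.7% with rapamycin. Of 80 ribosomal protein genes with a probe set of their own, 1 rose and 38 fell with 3-AT (median -0.76), and none rose and 78 fell with rapamycin (median -2.61). In 3-AT against rapamycin, 71 ribosome biogenesis genes and 75 ribosomal protein genes were higher in 3-AT and none lower. The deepest falls with rapamycin were DBP2 (-3.95 ± 0.32) and HAS1 (-2.90 ± 0.34), which encode RNA helicases of ribosome assembly, and RPS26B (-5.17 ± 0.57) and RPS7A (-4.71 ± 0.50), which encode small subunit proteins. RAP1 and TOD6 fell with rapamycin by less than the median of either group. CRF1 passed as higher with rapamycin, but on signals near background that give only a lower bound, of 1.00-fold, for the rise. With 3-AT CRF1 was at least 3.51-fold higher while the medians of both groups lay below 0.

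**Figure D4:**
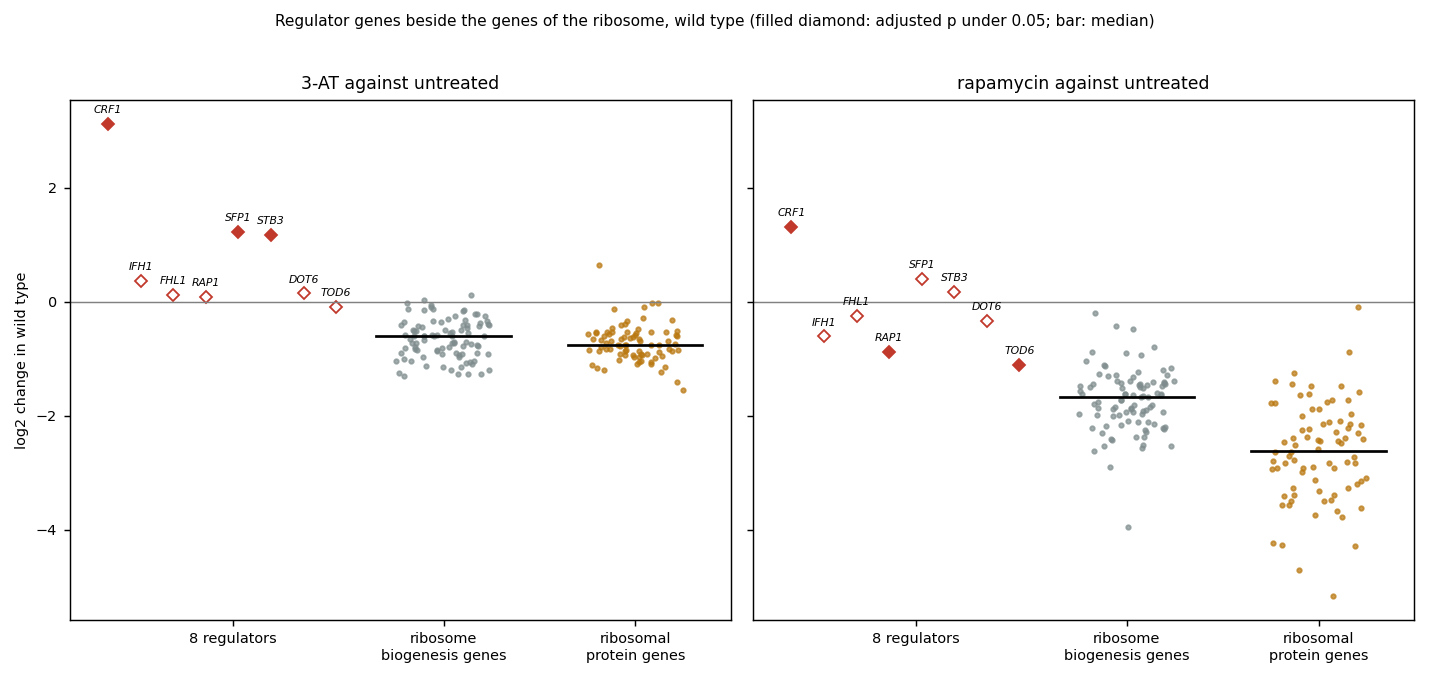
Change in wild type (log2 scale) of the 8 regulators (diamonds, filled where the adjusted p is under 0.05), of ribosome biogenesis genes (grey) and of ribosomal protein genes (brown), with a bar at the median of each group of targets. The target medians are -0.61 and -0.76 with 3-AT and -1.68 and -2.61 with rapamycin, and 7 of the regulators lie between -1.11 and 1.22 in both panels.

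Ordered by level over the 18 groups, the 6 CRF1 groups in 3-AT stood first. The gap from the last of them, gcn2 gln3, to the highest group in rapamycin, wild type, was 0.77, against a pooled SD between arrays of 0.38 (log2). The other 12 groups of CRF1 lay mostly below background, and no order is given for them. For SFP1 the 6 groups in 3-AT stood first, and 1 gap exceeded the SD of 0.40, between gcn2 gln3 and wild type in 3-AT (0.41). For RAP1 the 6 rapamycin groups stood last, and for TOD6 the 6 untreated groups stood first, with no gap beyond the SD in either. For STB3 the 6 groups in 3-AT were among the first 7, with gcn2 in rapamycin above gln3 in 3-AT, again with no gap beyond the SD. DOT6 had 1 such gap, below gcn2 gln3 in rapamycin (0.54), and the group under it was gcn4 gln3 in rapamycin with its low array. IFH1 and FHL1 had none. The SD of single arrays is wider than the error of a mean of 4 arrays, and for IFH1 and TOD6 it also holds the differences between replicate numbers given below.

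Over the 18 group means, IFH1 varied most like RAP1 among the regulators (r = 0.87) and CRF1 most like STB3 (r = 0.86). IFH1 with TOD6 gave 0.85, SFP1 with STB3 0.83, SFP1 with CRF1 0.81 and RAP1 with TOD6 0.80. The lowest value was -0.31 for TOD6 with STB3, and the paralogs DOT6 and TOD6 gave 0.30. These correlations describe 18 groups that share 3 treatments, 6 genotypes and the scaling of their arrays, and CRF1 was above background on 27 of 72. They include the 3 arrays of high actin ratio and were not computed without them. On 1 of these, replicate 2 of gcn4 gln3 in rapamycin, DOT6 was lowest and TOD6 highest in the group, at 370.4 and 2069.7 units. Among 5408 other genes, the nearest to TOD6 were DRS1 (0.98), NOP8 (0.97) and EBP2 (0.97), and the nearest to RAP1 were URB1 (0.97), RRN7 (0.95) and RPL22B (0.94). IFH1 was nearest to MPP6 (0.91), RCM1 (0.89) and RET1 (0.89). SFP1 was nearest to TPO4, HRK1 and ARP6 (all 0.98), and CRF1 to TAH11 (0.98), CFD1 and ISA1 (both 0.97). STB3 was nearest to HSU1, NPR2 and MSN1 (all 0.94), DOT6 to ICE2 (0.92), PPQ1 (0.91) and DEP1 (0.90), and FHL1 to TCA17 (0.88), YLL054C (0.84) and YDL109C (0.84).

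The regulators also differed between arrays by the replicate number in the labels. IFH1 and TOD6 each had their lowest signal on replicate 3 in 18 of 18 groups. The median of IFH1 over the 18 groups was 717, 620.0, 380.1 and 523 units on replicates 1 to 4, and that of TOD6 was 1460.3, 1452, 856 and 1389.7 units. SFP1 had its lowest signal on replicate 1 in 14 groups and DOT6 its highest on replicate 4 in 13. Numbers in the labels are not said to mark a shared day or culture. Within replicate numbers, rapamycin arrays lay below the untreated array of the same genotype in 24 of 24 comparisons for RAP1, 23 of 24 for TOD6 and 20 of 24 for DOT6. They lay above it in 22 of 24 for CRF1 and in 20 of 24 for SFP1 and STB3. 3-AT arrays lay above it in 24 of 24 comparisons for SFP1, STB3 and CRF1, and below it in 21 of 24 for TOD6.

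**Figure D5:**
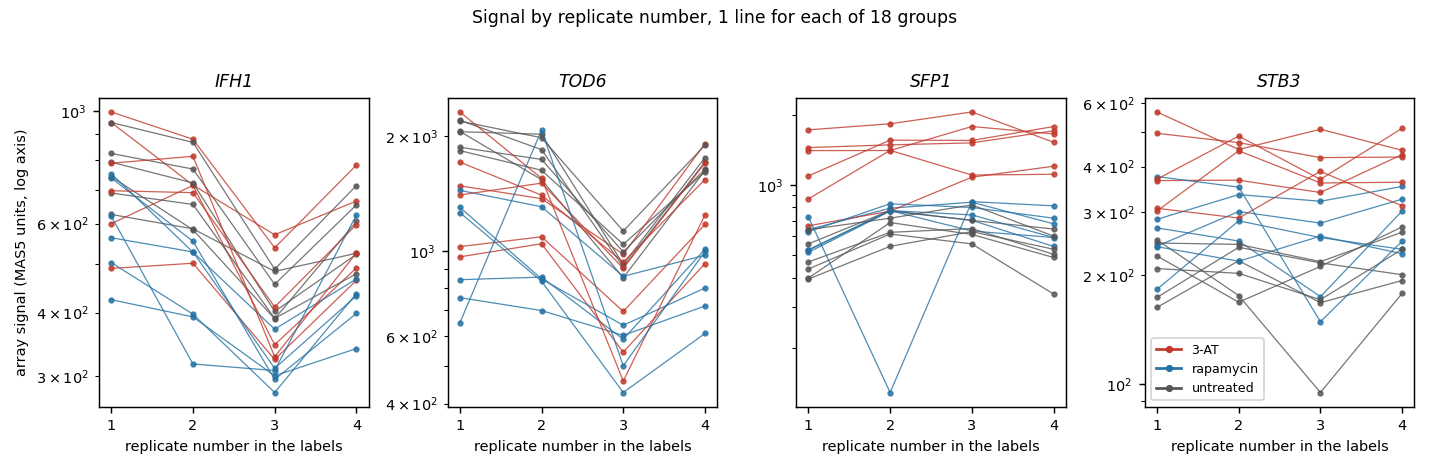
Array signal (log axis, MAS5 units) of IFH1, TOD6, SFP1 and STB3 by replicate number, with 1 line for each of 18 groups coloured by treatment. The lines of IFH1 and TOD6 dip at replicate 3 in all 18 groups, and the lines of STB3 show no common dip, with its lowest point, 94.96 units, in untreated gln3.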

How the data were processed

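Total RNA of 72 yeast samples was hybridised to Affymetrix arrays. The authors deposited a linear signal intensity for each of 9335 probe sets. Per the submitters' processing notes it came from GCOS and MAS5, of versions not given in the sources used here. All columns were used. Any value under 16.5, the 10th percentile over the whole table, was set to that floor, and log2 was taken with no further scaling. After removal of 60 control probe sets, 6504 read 1 gene, 328 several and 2443 no named gene in the platform annotation, and the brightest probe set of each gene was kept (8427 in all). Probe sets above background (the 30th percentile of the array) on at least 4 arrays were tested, 6869 in all with 5409 named genes. No 2 arrays were copies (highest correlation 0.992).

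A model of 18 group means per probe set was fitted with limma (version 3.58.1, in R 4.3.3 with data.table at 1.17.8), with 54 residual and 4.54 prior degrees of freedom and p-values adjusted by Benjamini-Hochberg within each contrast. A gene passed, rose or fell at an adjusted p under 0.05. The median residual SD was 0.41 on the log2 scale and 0.28 without the 3 arrays of high actin ratio. Where no array of a group was above background, a bound was computed with its arrays raised to their own background. Changes of low signals are understated by the floor. The labels do not say whether replicates are separate cultures, so p-values measure the spread between these samples, and the number of arrays limits the precision. On simulated data for 3-AT against untreated in wild type (6869 probe sets), 49 of 100 changes of 1 log2 unit and 94 of 100 of 2 units were recovered, with 9 false calls. In the simulation only these probe sets changed and noise was independent between arrays, whereas 2457 probe sets passed in the real comparison. The sensitivity of the reported tests can therefore differ from these figures.

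The 8 genes, the lists and the naming rules were chosen with earlier results of these data known. The genes named are the 8 regulators, the 3 deleted genes, actin, the listed partners that passed in wild type, the 2 deepest falls of each target list and the 3 genes most like each regulator. Alternatives were quantile normalization, median centring, floors of 0.5 and 2 times the main one, other filters, a mean over probe sets, leaving out replicates or arrays, an actin covariate, a replicate block and fits on the compared arrays only. Promoter motifs were not analysed here. The remaining steps ran in Python (3.11.15), using pandas (2.3.3), numpy (2.4.6), matplotlib (3.10.9) and scipy (1.17.1).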

Additional observations from a re-analysis of the deposited data

Results flagged for a closer look

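In 5 of 144 groups (8 genes in 18 groups of 4 arrays) the signal of 1 array stood apart from the other 3 by Dixon's ratio, the gap to the nearest array over the whole range of the group. Chance gives about 1 in 20. Replicate 2 of gcn4 gln3 in rapamycin was apart for SFP1, with 128 units against 727 to 846 on the others (ratio 0.920), and for DOT6, with 370.4 against 1864 to 2299 (ratio 0.885). That is the array with an actin ratio of 43.2 and a mean correlation of 0.542 with the others. FHL1 had a high array, replicate 4, in untreated gcn2, with 136 units against 113 to 116 (ratio 0.854), and a low array, replicate 4, in gcn4 with rapamycin, with 79.7 against 125 to 130.4 (ratio 0.912). RAP1 had a low array, replicate 4, in gcn4 gln3 with 3-AT, with 445 units against 616 to 634 (ratio 0.922). In the main fit no mutant's response was called different from that of wild type for a regulator.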

How the results depend on the processing

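No change of a regulator turned its sign among those called, and all the counts at 0 stayed at 0 except where named. Requiring signal above background on all 72 arrays leaves 5 regulators in the test, without CRF1, FHL1 and SFP1: 3-AT in wild type gave 1 call in place of 3, the mutants 7 in place of 17, 3-AT against rapamycin in the mutants 8 in place of 16, and mutants against wild type 0 in place of 2 in 3-AT and 2 in place of 5 in rapamycin. The mutants then had 25 tests per comparison, and 1712 of 4258 probe sets passed with 3-AT in wild type. Leaving out each replicate number in turn, 3-AT against rapamycin in wild type gave 3 to 5 calls, the mutants with rapamycin 7 to 14, and mutants against wild type 1 to 5 in 3-AT and 2 to 3 in rapamycin. Leaving out each array in turn gave 3 to 5 in rapamycin against wild type. Mutants against wild type in 3-AT gave 4 calls with quantile normalization, 4 with 2 times the floor, 4 with the actin covariate, 3 with median centring, 8 on the compared arrays only and 9 without the 3 arrays of high actin ratio. In rapamycin that comparison gave 3 with 0.5 times the floor and 3 on the compared arrays only. No share over all probe sets is given for the mutants under these alternatives. In wild type with 3-AT, 3384 of 6869 probe sets passed on the compared arrays only and 3690 without the 3 arrays. Differences of responses gave 2 calls with 3-AT and 1 with rapamycin at 2 times the floor. With a replicate block they gave 2 with 3-AT, IFH1 in gcn4 (-0.67, adjusted p = 0.0279) and gcn4 gln3 (-0.69, adjusted p = 0.0220), mutants against wild type gave 5 in 3-AT and 7 in rapamycin, and the mutants gave 18 with rapamycin and 23 in 3-AT against rapamycin. The block added 24 calls over 344 tests and ended none. Among them IFH1 passed with rapamycin in wild type (-0.61, adjusted p = 4.25e-04), gcn2 (-0.52, 0.00349) and gcn2 gln3 (-0.49, 0.00605), and with 3-AT as higher in wild type (0.37, 0.0358) and gln3 (0.40, 0.0233). In wild type the block also raised the calls over all 6869 probe sets, with 3-AT from 2457 to 2787. With rapamycin they rose from 2597 to 2888, and in 3-AT against rapamycin from 2440 to 2719. Same-numbered arrays correlated with a median of 0.25 (-0.47 to 0.88), 441 of 612 pairs were over 0.1, and 61 of 72 arrays correlated best with their own number, so the numbers are a hint of shared handling from the data and not from the design. The cause of these differences was not tested beyond the smaller sets of genes or arrays named.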
